A study of Mus musculus with 8 samples.

Results

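Secreted proteins that bind iron or act on microbes at mucosal surfaces were followed in the whole mouse uterus after deletion of Foxa2, a forkhead transcription factor made in the glands of the endometrium. The 10 genes are Ltf, Lcn2, Chil1, Pigr, Reg3g, Saa3, Saa1, Lyz2, Bpifa1 and Defb1, a list of secreted epithelial defence genes matched by symbol. All 10 had a row, each through 1 probe set, among 19938 genes tested in all. Gene expression was measured with 1 microarray per animal in 4 Foxa2-deleted and 4 control uteri. The deleted females were PgrCre/+ Foxa2flox/flox, so Cre was made from 1 allele of the progesterone receptor gene Pgr and could act only in cells that use Pgr. The controls were Pgr+/+ Foxa2+/+, with no floxed allele and no Cre, so that Cre, the Pgr genotype and Foxa2 differ together and cannot be told apart. All females had been mated with vasectomised males, which gives pseudopregnancy without embryos, and were killed on day 3.5, with the day of the plug taken as day 0.5. No age or strain background is given in the sources used here.

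Mucosal epithelia keep microbes in check partly by withholding iron and partly by secreting proteins that damage or trap bacteria. Lactotransferrin, encoded by Ltf, binds iron directly, while lipocalin 2, encoded by Lcn2, captures the siderophores with which bacteria collect it. Both are also stored in the secondary granules of neutrophils, and lactotransferrin is a long-known estrogen-induced secretion of the mouse uterine epithelium. The other genes encode lectins, an antibody transporter, acute-phase proteins, lysozyme and antimicrobial peptides.

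The values are log2 intensities made with RMA, 1 per probe set and array. Array medians lay between 8.25 and 8.32, and no detection call comes with the values. Precision is set by having 4 arrays of each genotype. Foxa2 itself read 8.20 to 8.22 on the deleted arrays, against 8.61 to 8.82 on the control arrays, in the direction of the labels. The files do not tell whether this probe set lies in the deleted exons, so the size of the drop does not measure the deletion. Deleted uteri varied more among themselves, with correlations between arrays across genes of 0.9805 to 0.9900, against 0.9961 to 0.9968 among controls. These correlations are across genes, which are not independent replicates. Differences were fitted with limma and adjusted over all 19938 genes by Benjamini-Hochberg, and "rose" or "fell" is used at an adjusted p under 0.05.

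Of the 10 genes 3 rose in deleted uteri, 0 fell and 7 did not pass the threshold. Lcn2 was 19.0-fold, Ltf 18.1-fold and Chil1, which encodes a chitin-binding lectin without chitinase activity, 10.9-fold higher. Pigr, which carries polymeric immunoglobulins across epithelia, and the acute-phase gene Saa3 had means 2.32-fold and 2.39-fold higher without passing. The remaining 5 genes differed by at most 1.12-fold in their means. Over all genes tested 11.1% passed, 4.5% as higher and 6.58% as lower in deleted uteri, and the split of 898 higher and 1311 lower genes became 1082 and 982 when each array was centred on its median. The median log2 change was 0.69 over the 10 genes and 0.0075 over all genes. Since the genes were listed with earlier results of these data known, these shares describe the list and test nothing. Counted without a fit, the 4 values of one genotype all lay above those of the other in 5 of the 10 genes, against 21.1% of all genes. In whole tissue, a change in the number of cells of a type and a change of transcript per cell cannot be told apart.

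**Figure D1:**
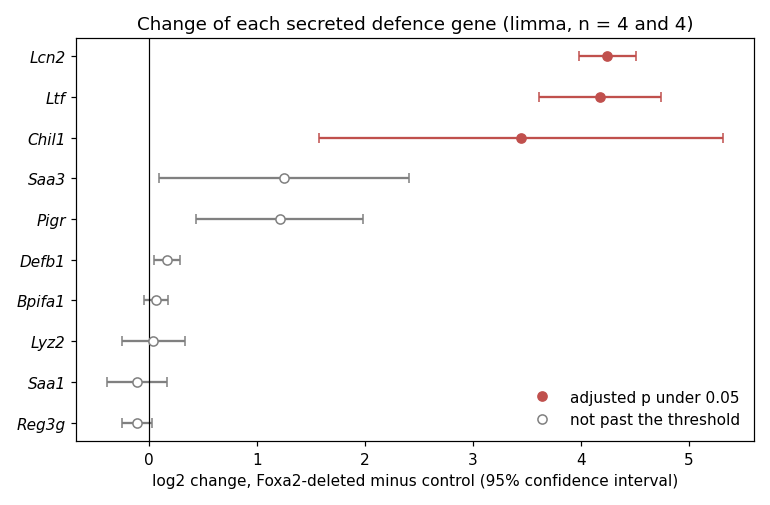
Log2 change of each of the 10 genes, Foxa2-deleted minus control, on the horizontal axis, with bars for the 95% confidence interval of the limma fit (4 and 4 uteri). Lcn2 and Ltf lie close together at 4.25 and 4.17 with narrow intervals, Chil1 has an interval from 1.57 to 5.31, and the 7 genes drawn with open symbols did not pass the threshold.

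Sequence upstream is shown for the 3 genes that rose. The 250 bases before each gene start were taken from a set of RefSeq promoter sequences on GRCm38.p6. This set held 9 of the 10 genes and lacked Defb1. Of these Ltf lies at chr9:111019042-111019291 on the plus strand, Lcn2 at chr2:32387740-32387989 on the minus strand and Chil1 at chr1:134181906-134182155 on the plus strand. They are written 5′ to 3′ in the direction of transcription, and capitals mark matches to the motifs listed after them.
Ltf: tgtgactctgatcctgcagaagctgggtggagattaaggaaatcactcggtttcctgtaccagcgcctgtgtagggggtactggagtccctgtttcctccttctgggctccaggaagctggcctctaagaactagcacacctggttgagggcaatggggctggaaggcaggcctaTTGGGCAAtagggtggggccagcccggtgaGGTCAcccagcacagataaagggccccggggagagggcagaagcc
Lcn2: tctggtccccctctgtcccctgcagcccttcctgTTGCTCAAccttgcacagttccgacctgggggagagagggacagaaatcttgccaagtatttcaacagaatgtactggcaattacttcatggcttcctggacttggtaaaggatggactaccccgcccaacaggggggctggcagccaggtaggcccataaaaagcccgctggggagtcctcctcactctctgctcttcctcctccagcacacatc
Chil1: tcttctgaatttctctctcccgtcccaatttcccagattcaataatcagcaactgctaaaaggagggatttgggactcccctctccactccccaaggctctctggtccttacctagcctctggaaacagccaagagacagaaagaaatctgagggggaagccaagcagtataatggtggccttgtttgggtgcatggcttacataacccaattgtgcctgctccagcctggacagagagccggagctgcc

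Both strands were searched for 9 motifs, and a match is a description of letters and not a binding site. The C/EBP motif TTGCNNAA was found in Ltf (bases 75 to 68 before the start), Lcn2 (216 to 209), Saa3 (99 to 92) and Saa1 (182 to 175), 4 of the 9 genes with sequence, and in 9.56% of all 32851 promoter windows. A single arm of the estrogen receptor site, GGTCA, was found in Ltf (45 to 41), Pigr (12 to 8) and Saa1, and in 35.2% of all windows. The full site, GGTCA followed after 3 bases by TGACC, was in none of the 9 and in 0.0639% of all windows. The FOXA motifs TGTTTAC and TGTTTGC were in none of the 9, against 3.17% and 4.3% of all windows, and the STAT motif TTCNNNGAA was also in none, against 7.02%. A single arm of the site shared by the progesterone and glucocorticoid receptors, TGTTCT, lay in Pigr and Bpifa1 (16.1% of all windows), and TATAAA in Reg3g and Bpifa1 (12.4%). A simplified NF-kB motif, GGANNTTCC, lay in Lyz2, where the same bases match on both strands (3.59% of all windows). No 2 different motifs overlapped in the 9 windows. Chil1 held none of these letters in its window.

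Lcn2 read 13.09, 12.96, 13.32 and 13.07 on Foxa2-deleted replicates 1 to 4, against 8.87, 9.0, 8.55 and 9.04 on control replicates 1 to 4. Every deleted uterus was thus far above every control, and the deleted arrays spanned only 0.36. The log2 change was 4.25 (SE 0.12, adjusted p = 4.5e-07, limma), the second-largest increase among all genes tested. It stayed between 4.14 and 4.30 when any 1 array was left out.

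Ltf read 12.46, 11.74, 12.92 and 11.83 on the deleted arrays, against 7.79, 8.32, 8.06 and 8.08 on the control arrays. The genotypes did not overlap, and deleted replicates 1 and 3 were higher than replicates 2 and 4. The log2 change was 4.17 (SE 0.25, adjusted p = 2.4e-04, limma), the third-largest increase, and lay between 3.95 and 4.34 with any 1 array left out. The changes of Lcn2 and Ltf differed by 0.07, less than the spread between arrays (two-sided exact permutation p = 0.77 for the difference within each array, and 0.91 adjusted over the 6 pairs of genes compared). Lcn2 lies on the same chromosome as Foxa2 with 999 tested genes between them, and Ltf on that of Pgr with 1008 between.

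Chil1 read 7.84, 11.03, 12.60 and 11.06 on the deleted arrays, against 7.27, 7.26, 7.08 and 7.15 on the control arrays. Deleted replicate 1 lay 0.65 above the control mean, while the other 3 deleted uteri lay 3.84 to 5.41 above it. From the lowest to the highest deleted uterus Chil1 differed 27.1-fold, compared with 1.28-fold for Lcn2 and 2.27-fold for Ltf. The log2 change was 3.44 (SE 0.82, adjusted p = 0.034, limma). The call was lost without deleted replicate 4 (adjusted p = 0.0515) and without any 1 of control replicates 1 to 4 (adjusted p from 0.0713 to 0.0924). Without deleted replicate 1 the change was 4.37 (adjusted p = 0.0015). Compared within arrays, the changes of Lcn2 and Chil1 differed by 0.80 (exact permutation p = 0.60, 0.90 adjusted over the 6 pairs), and those of Ltf and Chil1 by 0.73 (exact permutation p = 0.91, 0.91 adjusted).

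**Figure D2:**
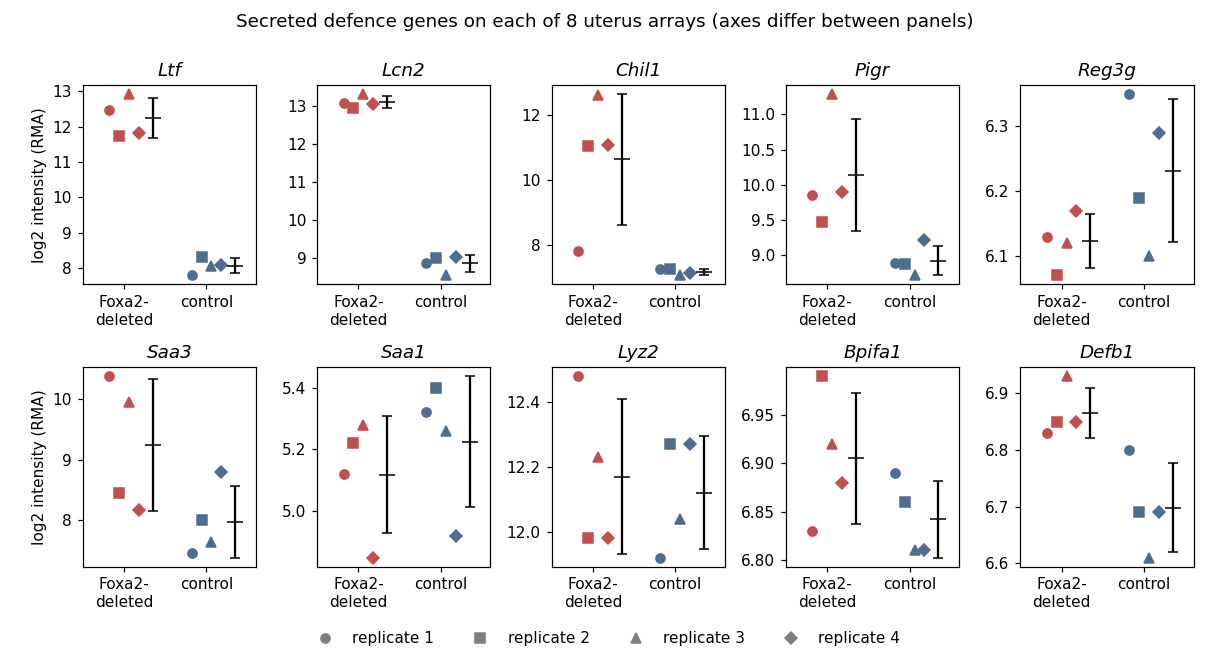
Log2 intensity of each gene on each of the 8 arrays (vertical axes differ between panels), with the symbol giving the replicate number and a bar for mean and SD over 4 uteri. Lcn2 and Ltf separate the genotypes widely, Chil1 has deleted replicate 1 at 7.84 close to the controls, and the panels of Reg3g, Saa1, Bpifa1 and Defb1 each span under 1 log2 unit.

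Genes with a pattern most like these were found by the root mean square distance over the 8 arrays, after subtraction of each gene's control mean. Nearest to Ltf were Lcn2 at a distance of 0.31, Clca1, a secreted regulator of chloride channels, at 0.35 and the membrane mucin gene Muc4 at 0.45. The same measure placed Ltf, Clca1 and Muc4 nearest to Lcn2, at 0.31, 0.48 and 0.52. Nearest to Chil1 were Sprr2d and Sprr2b, which encode small proline-rich proteins known from cornified epithelia, at 0.59 and 0.78, and Nox1, a catalytic subunit of NADPH oxidase, at 0.82. In all 3 the low array was again deleted replicate 1. Sprr2d lay 2.06 above its control mean on that replicate and 3.50 to 4.66 above it on the other deleted arrays. Nox1 lay 0.035 below its control mean there and 2.30 to 4.43 above it on the others, and did not pass (log2 change 2.33, SE 0.76, adjusted p = 0.078, limma). Leaving out deleted replicate 1, Nox1 passed (adjusted p = 0.014).

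**Figure D3:**
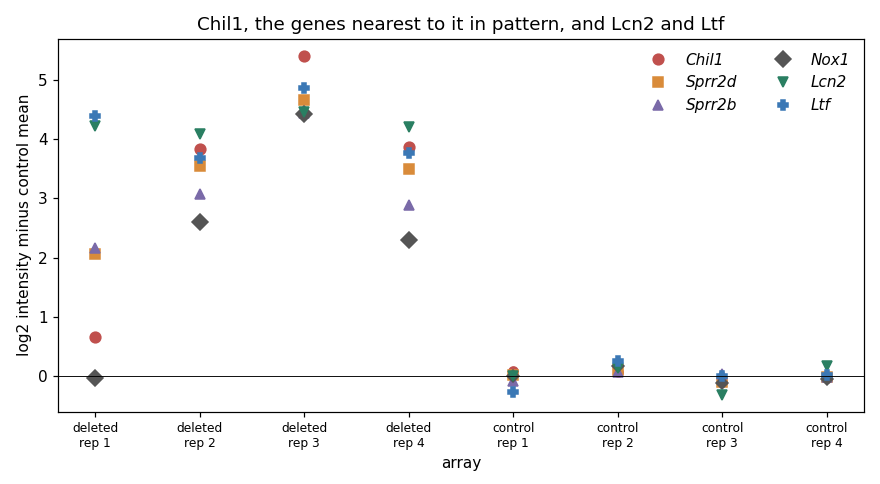
Log2 intensity minus the control mean on each array for Chil1, for Sprr2d, Sprr2b and Nox1, and for Lcn2 and Ltf. On deleted replicate 1, Lcn2 and Ltf stand above 4 while Chil1 is at 0.65 and Nox1 near 0, and on deleted replicate 3 all 6 genes lie above 4.

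Pigr encodes the receptor that takes up IgA and IgM at the base of epithelial cells and releases them at the surface. It read 9.85, 9.47, 11.29 and 9.90 on the deleted arrays, against 8.88, 8.86, 8.71 and 9.21 on the control arrays. The genotypes did not overlap, and deleted replicate 3 stood 2.38 above the control mean while the other 3 stood 0.56 to 0.98 above it. The log2 change was 1.21 (SE 0.34, 95% confidence interval 0.44 to 1.99) at an adjusted p of 0.054 (limma), just short of the threshold. Pigr passed without deleted replicate 2 (adjusted p = 0.026) and without deleted replicate 3 (adjusted p = 0.011), where the change was 0.83. Jchain, whose product joins the immunoglobulins that Pigr carries, read 9.53, 8.77, 7.94 and 9.03 in deleted uteri, against 8.59, 8.30, 9.24 and 9.59 in controls (log2 change -0.11, adjusted p = 0.86, limma; named after its values were seen). Of 9 plasma cell and B cell markers measured 1 rose, Sdc1, which epithelial cells also make, and 0 to 1 rose with 1 array left out.

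Saa3 and Saa1 encode serum amyloid A proteins of the acute-phase response, the second made mainly by the liver. Saa3 read 10.37, 8.45, 9.95 and 8.17 on the deleted arrays, against 7.47, 8.01, 7.64 and 8.80 on the control arrays. Deleted replicates 1 and 3 lay above every control, while replicates 2 and 4 lay among them. The log2 change was 1.26 (SE 0.51, adjusted p = 0.13, limma), with a 95% confidence interval of 0.10 to 2.41. Deleted replicate 1, the lowest for Chil1, was the highest for Saa3. Saa1 read 5.12, 5.22, 5.28 and 4.85 on the deleted arrays, against 5.32, 5.40, 5.26 and 4.92 on the control arrays. The genotypes overlapped (log2 change -0.11, 95% confidence interval -0.39 to 0.17, adjusted p = 0.57, limma). Within arrays the change of Saa3 exceeded that of Saa1 by 1.36, with overlapping genotypes (exact permutation p = 0.086, 0.17 adjusted over the 6 pairs). Serum amyloid A genes are closely related, and whether the probe set of Saa1 also reads Saa2 was not tested.

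Lyz2 encodes the lysozyme of macrophages and neutrophils, which cleaves bacterial cell walls. It read 12.48, 11.98, 12.23 and 11.98 on the deleted arrays, against 11.92, 12.27, 12.04 and 12.27 on the control arrays. The genotypes overlapped, and the log2 change was 0.04 with a 95% confidence interval of -0.25 to 0.33 (adjusted p = 0.84, limma). Its sign turned without deleted replicate 1 (-0.06) and without control replicate 1 (-0.03). Lyz1, the neighbouring lysozyme gene known from Paneth cells of the gut and named here after its values were seen, read 9.55, 9.51, 9.29 and 9.37 on the deleted arrays, against 10.26, 9.87, 10.04 and 10.55 on the control arrays. It fell by 0.75 (SE 0.14, adjusted p = 0.015, limma). Within arrays Lyz2 exceeded Lyz1 by 0.79 more in deleted uteri than in controls, without overlap (exact permutation p = 0.029, the smallest that 4 against 4 can give, and 0.086 adjusted over the 6 pairs). Because Lyz1 was picked with its values known, this p describes the pair and is no independent evidence. The 2 lysozyme genes are closely related copies, and whether their probe sets cross-hybridise was not tested.

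The mucosal antimicrobial genes Reg3g, Bpifa1 and Defb1 differed little in size. Reg3g, a lectin that kills Gram-positive bacteria in the mouse gut, read 6.13, 6.07, 6.12 and 6.17 in deleted uteri, against 6.35, 6.19, 6.10 and 6.29 in controls. The log2 change of Reg3g was -0.11 (95% confidence interval -0.25 to 0.03, adjusted p = 0.24, limma). Its relative Reg3b, named after its values were seen, had a change of 0.20 (adjusted p = 0.059, limma). Within arrays the change of Reg3g lay below that of Reg3b by 0.31, without overlap (exact permutation p = 0.029, 0.086 adjusted over the 6 pairs). The unadjusted p is the smallest that this test can give. As Reg3b was picked with its values known, this p describes the pair and is no independent evidence. Reg3b, like Reg3g, was among the dimmest genes by mean intensity.

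Bpifa1, which encodes a secreted lipid-binding protein of the upper airways, read 6.83, 6.99, 6.92 and 6.88 in deleted uteri, against 6.89, 6.86, 6.81 and 6.81 in controls. These values overlapped (log2 change 0.06, 95% confidence interval -0.05 to 0.17, adjusted p = 0.40, limma). Bpifa1 is on the chromosome of Foxa2 with 99 tested genes between them. Defb1, a beta-defensin that many epithelia make without stimulation, read 6.83, 6.85, 6.93 and 6.85 in deleted uteri, against 6.80, 6.69, 6.61 and 6.69 in controls. The genotypes did not overlap, but the log2 change was 0.17 (95% confidence interval 0.05 to 0.29) with an adjusted p of 0.070 (limma). Reg3g, Saa1, Bpifa1 and Defb1 were among the dimmest 25% of genes by mean intensity, and for these 4 a difference may not have been detectable.

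**Figure D4:**
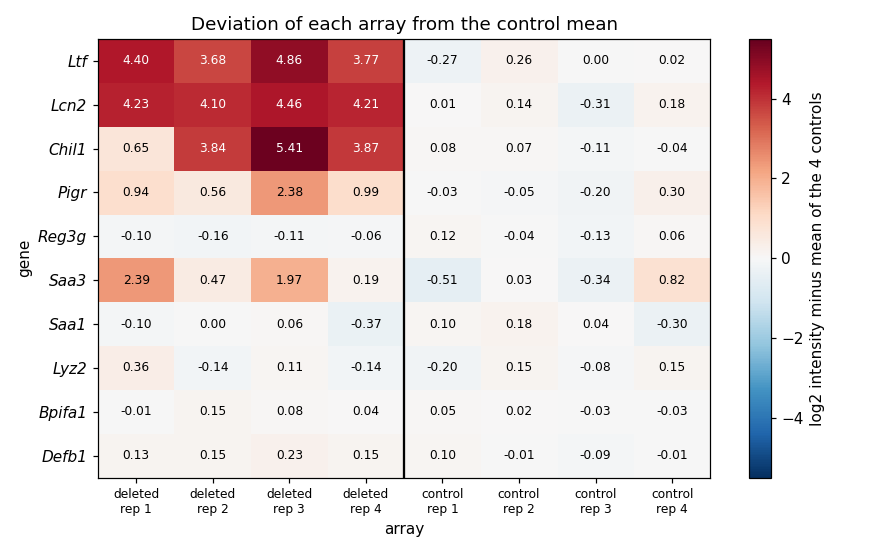
Log2 intensity minus the mean of the 4 controls for each gene (rows) on each array (columns), with the colour scale from blue below to red above the control mean. Deleted replicate 3 holds the highest deleted value in 6 of the 10 genes, whereas Saa3 and Lyz2 were highest on deleted replicate 1.

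Other defence genes held a few large increases and many small differences. This wider list counts the membrane mucin genes Muc4 and Muc1 with the secreted ones. Of 41 measured, 8 rose, 2 fell and 31 did not pass (median log2 change 0.14, beside 0.0075 over all genes), and 4 to 13 rose when 1 array was left out. Over all genes 4.5% rose and 6.58% fell, the shares beside which the counts of this and the later lists stand. Muc4 rose by 3.71 (SE 0.28), the complement factor B gene Cfb by 2.19 (SE 0.29), the epithelial mucin gene Muc1 by 1.57 (SE 0.25) and Spon2, which encodes a matrix protein that binds bacterial lipopolysaccharide, by 1.0 (SE 0.15). Their adjusted p ran from 3.8e-04 to 0.011 (limma), and all 4 passed with each array left out. Cfb read 11.12, 11.05, 12.47 and 11.18 in deleted uteri, against 9.13, 9.23, 9.23 and 9.47 in controls, so that deleted replicate 3 was again the highest.

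Of 21 iron handling genes measured 1 rose, 3 fell and 17 did not pass (median log2 change 0.06), and with 1 array left out 1 to 3 rose and 0 to 4 fell. Over all genes 4.5% rose and 6.58% fell. Slc40a1, which encodes ferroportin, the exporter of cellular iron, read 10.87, 9.59, 11.22 and 10.66 in deleted uteri, against 8.57, 8.46, 8.60 and 8.51 in controls. It rose by 2.05 (SE 0.29, adjusted p = 0.0067, limma) and passed with each array left out. Hpx, which encodes the haem-binding protein hemopexin, Hfe, a regulator of iron uptake, and the metalloreductase gene Steap4 fell by 0.26 (SE 0.05), 0.28 (SE 0.06) and 0.85 (SE 0.21). The call of Hpx did not hold after removal of control replicate 2, 3 or 4 (highest adjusted p 0.0548), that of Hfe without control replicate 1, 2 or 4 or deleted replicate 1 (up to 0.0832) and that of Steap4 without any 1 control or deleted replicate 1 (up to 0.11).

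Of 14 genes measured for receptors and transport of the listed proteins 1 rose, 4 fell and 9 did not pass (median log2 change 0.07), and 0 to 4 fell when 1 array was left out. Of the 3 listed genes whose products are known to bind lipocalin 2, Lrp2 and Slc22a17 fell, and Mc4r, named after its values were seen, had a change of -0.10 (adjusted p = 0.30, limma). Lrp2, the endocytic receptor megalin, read 7.28, 11.03, 8.60 and 7.91 in deleted uteri, against 11.34, 11.58, 11.60 and 11.20 in controls, with deleted replicate 2 close to the controls. Lrp2 fell by 2.73 (SE 0.68, adjusted p = 0.038, limma), a call that was lost on leaving out any 1 array other than deleted replicate 2 (adjusted p up to 0.103). Slc22a17, a lipocalin 2 receptor of the cell surface, fell by 0.33 (SE 0.08, adjusted p = 0.037, limma), which was lost without any 1 control or deleted replicate 1 (up to 0.0999). Scarb1, a scavenger receptor that binds serum amyloid A, fell by 0.54 (SE 0.12, adjusted p = 0.024), and lost its call without control replicate 1, 3 or 4 or deleted replicate 1 (up to 0.0781). Ptgdr2, a prostaglandin D2 receptor that has also been described as a receptor of the Chil1 product in mice, rose by 0.97 (SE 0.19, adjusted p = 0.018). It no longer passed after removal of control replicate 2, 3 or 4 (adjusted p up to 0.0609). Il13ra2, another known receptor of the Chil1 product and named here after its values were seen, read 6.86, 8.12, 6.32 and 6.05 in deleted uteri, against 8.13, 8.53, 8.35 and 8.55 in controls. It fell by 1.55 (SE 0.39, adjusted p = 0.038, limma), a change that did not pass without deleted replicate 1 or without control replicate 1, 3 or 4.

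Among genes of the cytokine and pattern receptor pathways that can induce such secretions, 2 of 29 measured rose, 2 fell and 25 did not pass (median log2 change 0.14), and 1 to 4 rose when 1 array was left out. The shares that rose and fell over all genes were 4.5% and 6.58%, and these counts lie near them. The interleukin 1 alpha gene Il1a read 7.88, 8.27, 10.25 and 8.17 in deleted uteri, against 5.88, 6.0, 6.03 and 6.05 in controls. It rose by 2.65 (SE 0.45, adjusted p = 0.012, limma), with no overlap between the genotypes, and passed with each array left out. By mean intensity Il1a was among the dimmest 25% of genes. Il17ra, a subunit of the interleukin 17 receptor, rose by 0.70 (SE 0.18, adjusted p = 0.039), and no longer passed when any 1 control or deleted replicate 1 was removed (up to 0.107). Il6st, the signalling subunit shared by receptors of the interleukin 6 family, fell by 0.38 (SE 0.05, adjusted p = 0.0049), and so did the tumour necrosis factor receptor gene Tnfrsf1a by 0.31 (SE 0.07, adjusted p = 0.023), the second losing its call without any 1 control (up to 0.0749).

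Ltf is best known in the uterus as an estrogen-induced gene, so other genes known to respond to estrogen there were counted beside it. Of 18 measured 15 rose, 0 fell and 3 did not pass (median log2 change 2.23), and 13 to 15 rose with any 1 array left out. The 3 that did not pass, named after their values were seen, were Aqp5, Ckb and Igf1. Log2 changes of these 3 were 0.15, 0.125 and -0.375 (adjusted p = 0.62, 0.53 and 0.15, limma). Clca1 rose by 4.55 (SE 0.32), Sprr2f by 3.42 (SE 0.28) and the alkaline phosphatase gene Alpl by 3.07 (SE 0.32), with adjusted p from 3.5e-04 to 0.0016 (limma). Averaged over the list, deleted replicates 1 to 4 exceeded the control mean by 2.06, 1.63, 2.73 and 1.87. Muc4 and Muc1 are also counted among the defence genes above, and Krt19 among the epithelial markers below. Pgr, 1 of the 15, is the gene that carries Cre. Its rise was 0.37 (SE 0.10, adjusted p = 0.043, limma). That call was lost without any 1 control and without deleted replicate 1 or 4 (adjusted p up to 0.105). The list was written with earlier results of these data known and is no independent evidence. Hormone levels were not part of the data.

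**Figure D5:**
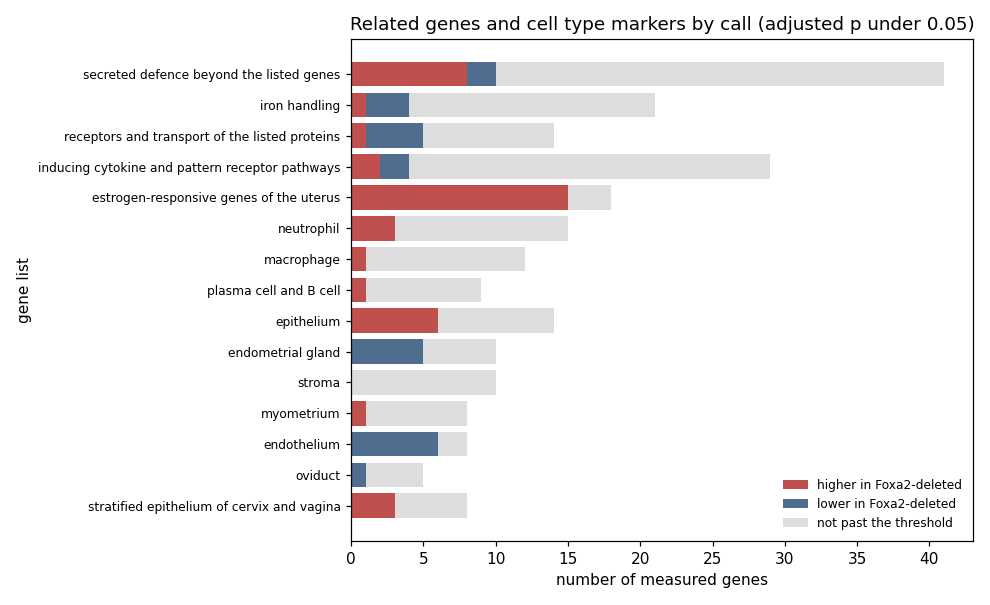
Number of measured genes in each list (horizontal axis) that were higher, lower or not past the threshold in deleted uteri (limma, adjusted p under 0.05). The list of estrogen-responsive genes is mostly higher, that of endothelium mostly lower, and most genes of the iron handling and inducing pathway lists did not pass.

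Ltf, Lcn2 and Lyz2 are also products of myeloid cells, so markers of these cells are given beside them. Of 15 neutrophil markers measured 3 rose, 0 fell and 12 did not pass (median log2 change 0.27). Their summed intensity, on the linear scale, ran from 4017 to 8812 in deleted uteri and from 3184 to 3982 in controls. Cxcr2, a chemokine receptor of neutrophils, read 7.79, 7.41, 9.61 and 7.58 in deleted uteri, against 5.86, 5.56, 5.71 and 5.93 in controls (log2 change 2.33, SE 0.43, adjusted p = 0.015, limma). Ly6g and Ctsg rose by 1.21 (SE 0.25) and 0.31 (SE 0.06). No neutrophil marker passed without control replicate 2 or without control replicate 3, 1 passed without control replicate 4, and 6 passed without deleted replicate 3. Cxcr2 and Ctsg were among the dimmest 25% of genes by mean intensity, and Ly6g was in the lower 50%. Hence 1 marker was higher with the dimmest 25% left out, and 0 with the lower 50% left out.

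The granule genes Mpo, Elane, Camp and Ngp, named after their values were seen, did not pass. Their log2 changes were 0.13, 0.11, 0.085 and -0.01 (adjusted p = 0.24, 0.13, 0.38 and 0.92, limma). S100a8 and S100a9, abundant in neutrophils and likewise named afterwards, had changes of 0.93 and 0.99 (adjusted p = 0.070 and 0.069, limma). Csf3r and Mmp9, also named afterwards, had changes of 1.04 and 0.65 (adjusted p = 0.065 and 0.11, limma). Relative to the control mean, the neutrophil list averaged 0.44, 0.36, 1.14 and 0.32 in deleted uteri 1 to 4, with replicate 3 the highest, as for Ltf, Lcn2 and Chil1. On replicate 1 it was higher than on replicates 2 and 4, whereas Chil1 was lowest there. The part of neutrophils in the changes of Ltf, Lcn2 and Chil1 was not tested. Since no detection call is given, it cannot be said which markers were at background.

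Of 12 macrophage markers 1 rose and 0 fell, against 4.5% higher and 6.58% lower over all genes. The marker that rose was Cd163 (log2 change 0.25, SE 0.07, adjusted p = 0.049, limma). Its call was lost without any 1 array other than control replicate 1 (adjusted p up to 0.132). Their summed intensity overlapped between the genotypes, from 9387 to 14050 in deleted uteri and from 10590 to 14870 in controls, and so did that of Lyz2 above.

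Of 14 epithelial markers measured 6 rose, 0 fell and 8 did not pass (median log2 change 0.73), with 3 to 9 higher when 1 array was left out. Their summed intensity ran from 20640 to 39840 in deleted uteri, above the 14840 to 16730 of controls. The keratin genes Krt19 and Krt7 and the epithelial transcription factor gene Elf3 rose by 1.86 (SE 0.22), 1.52 (SE 0.27) and 1.77 (SE 0.25). Krt18, Cldn3 and Cldn4, named after their values were seen, did not pass. Their log2 changes were 0.11, -0.47 and -0.11 (adjusted p = 0.69, 0.15 and 0.48, limma). Averages of the epithelial list exceeded the control mean by 0.52, 0.33, 1.26 and 0.72 in deleted uteri 1 to 4. Of 10 endometrial gland markers 5 fell, among them the gland chemokine gene Cxcl15 by 3.98 (SE 0.11), and 0 rose. Foxa2, the deleted gene itself, is 1 of these 5. The part of the number of epithelial cells in the changes of Ltf, Lcn2 and Chil1 was not tested.

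Markers of tissue that could be dissected with the uterus, here oviduct, cervix and vagina, differed by small amounts. Of 8 markers of the stratified epithelium of cervix and vagina 3 rose, by at most 0.43, and 0 to 3 rose with 1 array left out. Their summed intensity ran from 1292 to 1545 in deleted uteri and from 1153 to 1240 in controls. Of 5 oviduct markers 1 fell, Cfap126 by 0.33 (SE 0.07), a call lost without any 1 control or deleted replicate 1 (adjusted p up to 0.08), and the summed intensities overlapped (676.5 to 719.9 and 668.5 to 730.2). Stroma, endothelium and myometrium are parts of the uterus itself. Among 10 stromal markers none passed by limma (median log2 change -0.08), with 0 to 5 lower when 1 array was left out. Of 8 endothelial markers 6 fell, and 3 to 8 fell with 1 array left out. Endothelial changes ran from -0.915 to -0.39 (median -0.68). Of 8 myometrial markers 1 rose (median 0.23), and 0 to 3 rose with 1 array left out.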

How the data were processed

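Total RNA (150 ng) from the whole uterus of each of 8 mice was labelled with biotin and hybridised to 1 array, with no pooling, per the labels' protocols. The authors deposited log2 intensities made with RMA, per the submitters' processing notes, which also name limma. Their versions and a genome build are not stated in these sources. Genotypes and replicate numbers come from the labels, which call the replicates biological.

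Of 35556 probe sets 21789 had 1 gene symbol in the platform annotation, 1621 several and 12146 none. Those with 1 symbol were used, with the highest-mean probe set per gene, leaving 19938 genes. Entrez identifiers of 21698 probe sets matched the gene table of GRCm38.p6, which served for names and gene order. Genotypes were compared in R 4.3.3 by the moderated linear model of limma 3.58.1, with no covariate, adjusted by Benjamini-Hochberg over all genes. SE and 95% confidence intervals are those of the moderated fit. Single values were compared by two-sided exact permutation tests over 70 arrangements. Intensity sums are over 2 raised to the log2 value. The fit was tested on simulated data.

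The genes, lists and pairs were chosen with earlier results of these data known. Named from each list were the genes with the smallest adjusted p, up to 4 of those that passed, or 2 where none did, and for each listed gene that passed the 3 with the nearest pattern. Names outside this rule are marked. Same-numbered replicates of the 2 genotypes were not paired: their deviations correlated between -0.051 and 0.057. Alternatives covered scaling, dim genes, probe sets, variance models, the replicate block and each array left out.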

Additional observations from a re-analysis of the deposited data

Results flagged for a closer look

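No value of the 10 defence genes, Foxa2 or Pgr stood apart from the other 3 of its genotype by Dixon's ratio. Among all 114 sets of 4 values examined (57 genes in each genotype) 9 had a value that did, and chance flags about 1 set in 20. On Foxa2-deleted replicate 3 these were Cfb at 12.47, Il1a at 10.25, Alpl at 12.36 and Cxcl15 at 6.25, each above the other 3 deleted uteri. In controls they were Hpx at 7.98, Sprr2f at 7.55 and Hoxa11 at 10.66 on replicate 4, and Hfe at 8.49 and Cfap126 at 7.59 on replicate 3.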

How the results depend on the processing

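Ltf and Lcn2 passed under all 22 alternatives. Chil1 lost its call under the replicate block (adjusted p = 0.0577) and without the single arrays named above. Pigr passed on repeated quantile normalisation (adjusted p = 0.0472) and with arrayWeights, per array or by genotype (0.0287 each). The other 6 genes passed under none in which they were tested (the dimmest were left out by the filters on dim genes), and Lyz2 turned to -0.062 without Foxa2-deleted replicate 1 and to -0.026 without control replicate 1, within a range of -0.062 to 0.105. The count of the 10 genes that rose was 2 to 4 with 1 array left out, 0 fell in any, and 2 rose under the block. All genes that changed numbered 2209, and 1062 under the block (435 higher, 627 lower). The higher genes numbered 1351 with arrayWeights and 533 with the lower 50% of genes left out, where fewer genes were tested. Under repeated quantile normalisation the split was 1011 higher and 939 lower. With 1 array left out the changed genes numbered 556 to 3055, with 196 to 1372 higher and 348 to 1777 lower. In the wider lists 39 genes were higher and 23 lower, of which the lower numbered 15 under the block and 15 with the lower 50% left out. With 1 array left out 20 to 47 were higher and 10 to 33 lower. The cause of these shifts was not tested. Of 44 other named genes that passed, 22 did so with each array left out. No detection call was given, so what the signal over background limits is unknown.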
